A study of Mus musculus with 15 samples.

Results

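The genes described here are the transcription factor TFE3 with its relatives TFEB and MITF, the sensors upstream of them, and the lysosome and autophagy genes that such factors are known to serve. The list holds 45 mouse genes chosen by name, and 43 of them were found among the 11551 genes measured in the deposited tables. Cd63 and Ctsl were in none of the tables used here. A gene is in those tables only because the authors' own test called it in at least 1 of the 4 comparisons. A count over the 43 thus describes genes already picked as changing, and is set beside the share among the 11551, picked by that same test. The members and the wider lists used below were also chosen with earlier results of these data known. A members' share above that of all genes may therefore come in part from the choice. The authors' deposited tables list 41 of the members for Art_shBCLAF1 against Art, 38 for Rag_SPIC_tet_DOX_shBCLAF1 against Rag_SPIC_tet_DOX, 32 for Art against Rag_SPIC_tet_NoDOX and 25 for Rag_SPIC_tet_DOX against Rag_SPIC_tet_NoDOX. By role, the 43 are 3 transcription factors, 3 nutrient sensors, 6 membrane and lipid transport proteins, 8 proteases and their cofactors, 8 glycosidases, 3 proteins of lipid hydrolysis, 5 subunits of the proton pump and 7 autophagy genes.

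RNA was sequenced from 15 libraries of mouse Abelson cells, pre-B cells transformed with the v-Abl kinase, all kept for 48 h in the Abl inhibitor imatinib. The 5 groups have 3 libraries each. Art_shBCLAF1 is Art -/- cells (Art stands for Artemis, a nuclease of DNA end joining) with the hairpin shBCLAF1, and Art is Art -/- cells with no hairpin. Rag_SPIC_tet_DOX_shBCLAF1 is Rag -/- cells with a tetracycline-controlled SPIC construct, given doxycycline and the same hairpin. Rag_SPIC_tet_DOX is those cells with doxycycline alone, and Rag_SPIC_tet_NoDOX has neither. The labels name no agent but imatinib for the Art groups, no control hairpin and no Rag gene, and do not say whether a line is a clone. Nor do they say whether replicates came from separate cultures, so a p-value here speaks only of the spread among these libraries, which may be technical. The series asks, by its title, how DNA breaks made by RAG act on the ETS factor PU.1 through SPIC and BCLAF1, and the comparisons below ask how the lysosome and autophagy genes stood in those groups.

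Lysosomes break down proteins, sugars and lipids with acid hydrolases that work in the low pH made by a proton pump, the V-ATPase, and autophagy brings cytoplasmic cargo to them. TFE3, TFEB and MITF are related basic helix-loop-helix factors that bind a palindromic element, often called CLEAR, at many of these genes. In fed cells the kinase mTORC1 phosphorylates the factors at the lysosome and keeps them in the cytoplasm, and folliculin with its partner FNIP1 and the GTPase RagD present them to it. The control is therefore largely on the protein and its place in the cell, neither of which RNA levels measure.

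The elements the factors are known to bind are shown first. RefSeq promoter windows of GRCm38.p6, running from 250 bases before to 50 bases after a gene's start, were at hand for 40 of the 45 genes and were searched on both strands. The 8-base palindrome TCACGTGA was in the windows of 7 of the 40 genes (17.5%), against 1.12% of all 27025 genes with a window. Its first 7 letters, TCACGTG, were in 12 of the 40 (30.0%), against 4.29% of all genes, and the core CACGTG that both contain was in 13 (32.5%), against 8.09%. Counted by window, TCACGTG was in 25.5% of the members' 47 windows and 3.77% of all 32851. These matches describe letters only, and no match says only that the letters are not in that window. In the stretches below, which end before the start, capitals mark the 7-letter matches on either strand, which overlap in the palindrome. Dpp7, Ctsa and Mcoln1 are shown because their RNA fell together in Art_shBCLAF1, and Lamp1 for its row of 4 matches. Gla is shown because it rose in Art_shBCLAF1 with the palindrome in its window at 2 places. Ctsa also holds the palindrome at 2 places, the later beginning at position 5, after the start and outside the stretch shown.
Dpp7: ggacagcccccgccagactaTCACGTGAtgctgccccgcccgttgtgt
Ctsa: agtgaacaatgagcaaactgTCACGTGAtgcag
Mcoln1: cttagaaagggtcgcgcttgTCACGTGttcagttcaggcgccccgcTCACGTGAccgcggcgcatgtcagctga
Gla: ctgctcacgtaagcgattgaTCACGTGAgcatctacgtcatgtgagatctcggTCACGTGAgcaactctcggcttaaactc
Lamp1: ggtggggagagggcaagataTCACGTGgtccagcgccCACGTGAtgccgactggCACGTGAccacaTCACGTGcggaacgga
The Dpp7 stretch is chr2:25356379-25356426 on the minus strand, and its palindrome begins at position -74 from the start. The Ctsa stretch is chr2:164833740-164833772 on the plus strand. The Mcoln1 stretch is chr8:3500427-3500500 on the plus strand, and the Gla stretch is chrX:134601173-134601253 on the minus strand. The Lamp1 stretch is chr8:13159079-13159160 on the plus strand, with matches beginning at positions -62, -45, -28 and -16.

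Values are levels in log2 CPM, read counts scaled to the library's effective size, and a difference of 1 unit is a doubling. The effective size was between 17.2 and 27.1 M reads in 14 libraries and 5.81 M in Art replicate 3. Levels are not divided by gene length, so they compare libraries, not genes. Art replicate 3 also stood apart in its values: its root-mean-square log2 distance from Art replicates 1 and 2 was 0.94 and 0.95 over all genes, whereas 10 other pairs within groups lay between 0.24 and 0.36. Of the 43 members, 26 (60.5%) differed by more than 0.5 log2 units between Art replicate 3 and the mean of the other Art libraries, as did 56.3% of all genes. The Rag_SPIC_tet_DOX libraries were also spread, with a distance of 0.83 between replicates 1 and 2. Spic averaged 7.46 ± 0.04 log2 CPM in Rag_SPIC_tet_DOX_shBCLAF1 and 4.21 ± 0.44 in Rag_SPIC_tet_DOX, against 0.82 ± 0.62 in Rag_SPIC_tet_NoDOX (SD, n = 3 each). It also averaged 4.54 ± 0.24 in Art_shBCLAF1, against 0.44 ± 0.36 in Art. Bclaf1, the gene the hairpin is named for, was not lower under the hairpin: it averaged 8.32 ± 0.03 in Art_shBCLAF1 against 7.32 ± 0.79 in Art, and 8.04 ± 0.06 in Rag_SPIC_tet_DOX_shBCLAF1 against 7.73 ± 0.04 in Rag_SPIC_tet_DOX. The libraries are therefore called labelled shBCLAF1 below. Rag1 was read at 8.94 to 10.8 log2 CPM in the Rag -/- libraries, and Dclre1c, the gene of Artemis, at 2.87 to 5.12 in the Art -/- libraries. A level over a whole gene cannot show a deletion of part of it. Of the marker lists, all 10 pre-B genes were found, 12 of 15 myeloid genes, 5 of 5 plasma-cell genes, 2 of 8 T-cell genes (Lck and Tcf7) and 1 of 5 erythroid genes (Klf1, its level at 0.261 to 1.12 CPM). Ctss and Cd68 of the myeloid list are also lysosomal genes of the wider lists used below. Plasma-cell genes summed to 424 to 466 CPM in Art_shBCLAF1, 542 to 674 in Art, 491 to 514 in Rag_SPIC_tet_DOX_shBCLAF1, 440.0 to 606 in Rag_SPIC_tet_DOX and 611 to 629 in Rag_SPIC_tet_NoDOX. Mpo, Elane and C1qa of the myeloid list and Cd3e, Cd3d and Cd3g of the T-cell list were in none of the tables.

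**Figure D1:**
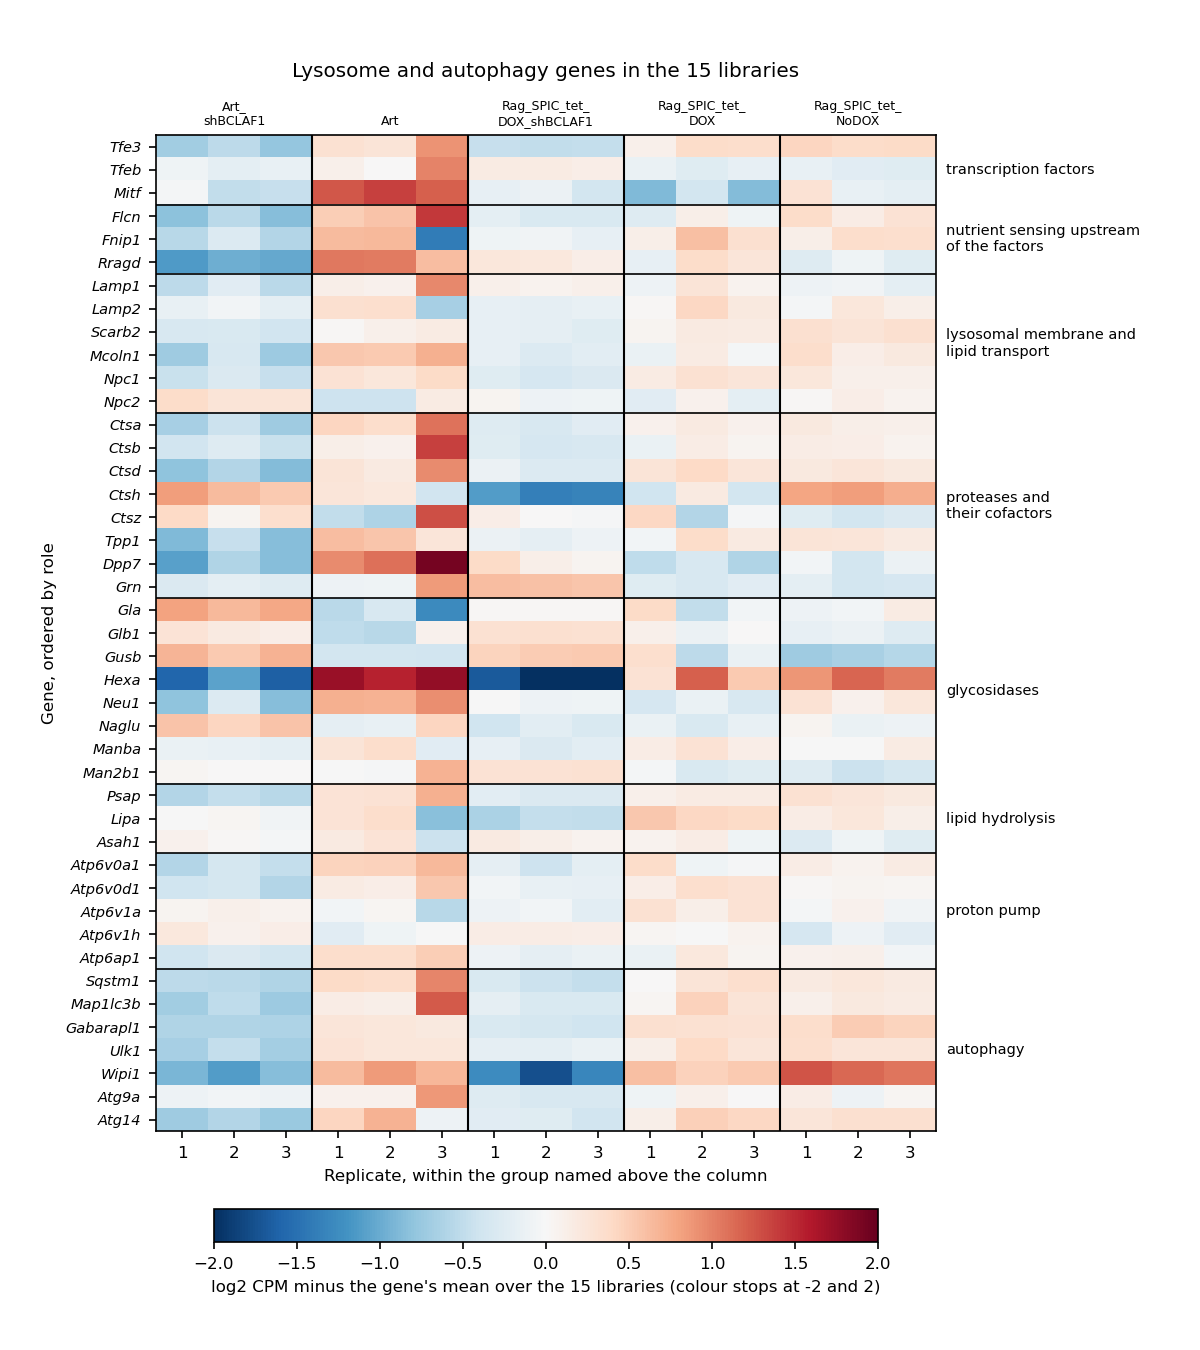
Levels of the 43 genes (rows, by role) in the 15 libraries (columns, by group and replicate), each as log2 CPM minus the gene's own mean over the 15 libraries, with colour limits at -2 and 2. Hexa, Wipi1 and most autophagy rows are blue in both groups labelled shBCLAF1, Mitf, Rragd and Neu1 are red in Art, and Art replicate 3 differs from its neighbours in many rows.

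The factors themselves did not share a pattern over the groups. Tfe3 stood at 5.74, 5.92 and 5.66 log2 CPM in Art_shBCLAF1, against 6.73, 6.69 and 7.34 in Art. It stood at 5.97, 5.95 and 5.96 in Rag_SPIC_tet_DOX_shBCLAF1, against 6.54, 6.80 and 6.78 in Rag_SPIC_tet_DOX and 6.86, 6.80 and 6.82 in Rag_SPIC_tet_NoDOX. All 6 libraries labelled shBCLAF1 thus lay below all 9 others for Tfe3. Tfeb lay between 6.53 and 6.95 in every library but Art replicate 3, where it was at 7.78. Mitf was a low transcript, with 15 to 80 reads in a library, and was highest in Art at 1.64, 1.76 and 1.59, and the next highest library, of Rag_SPIC_tet_NoDOX, was at 0.68.

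Of the sensors, Flcn and Rragd had their highest means in Art. Flcn, the GTPase activator for RagC and RagD, was at 7.78, 7.87 and 8.71 log2 CPM in Art, against 7.66, 7.44 and 7.58 in Rag_SPIC_tet_NoDOX. Rragd, which encodes RagD, was at 7.59, 7.58 and 7.16 in Art, against 6.27, 6.46 and 6.29 in Rag_SPIC_tet_NoDOX. Both genes were lowest in Art_shBCLAF1, Flcn at 6.47, 6.75 and 6.44 and Rragd at 5.41, 5.56 and 5.52. Fnip1, the partner of folliculin, was at 6.71 and 6.73 in Art replicates 1 and 2 and at 4.68 in Art replicate 3, so its Art mean of 6.04 ± 1.17 (SD, n = 3) lies near none of its 3 libraries.

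**Figure D2:**
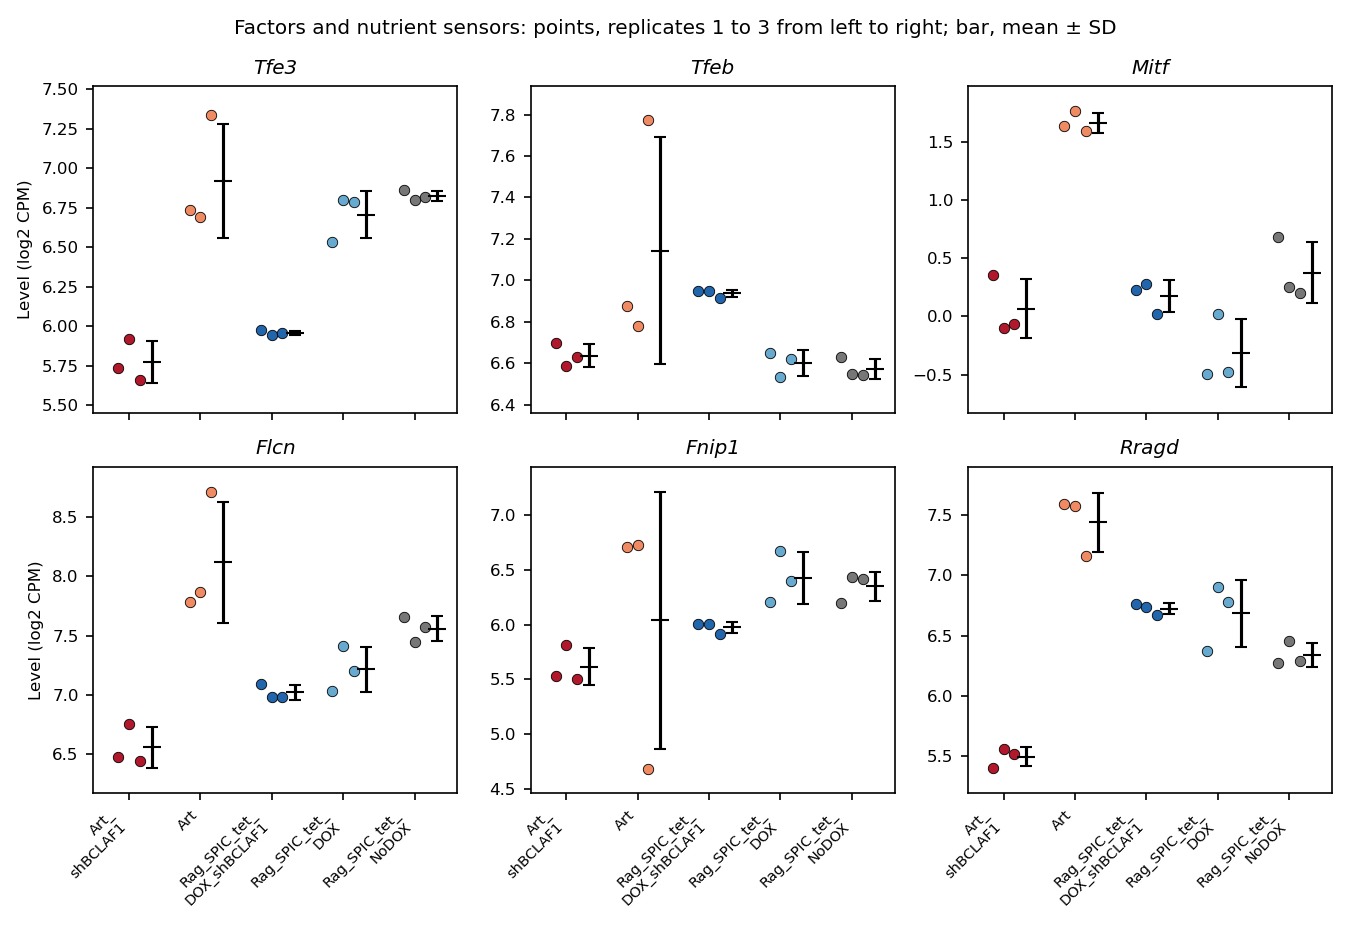
Levels (log2 CPM) of 3 transcription factors and 3 nutrient sensors in the 5 groups, with points for replicates 1 to 3 from left to right and a bar for the mean ± SD. Tfe3 is low in both groups labelled shBCLAF1, Mitf and Rragd are high in Art, and Fnip1 and Tfeb each have Art replicate 3 far from the other Art libraries. The vertical axes do not start at 0.

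The first comparison was of Art with Rag_SPIC_tet_NoDOX. By genotype these are cells in which RAG breaks are slow to be joined against cells in which RAG makes none, but breaks were not measured here. The groups are also separate lines, and by the labels only Rag_SPIC_tet_NoDOX carries the SPIC construct. Line, genotype and construct cannot be told apart. Mitf, Rragd, Dpp7 and Neu1 were higher in Art, and no member was lower. These are 4 of 43 members (9.3%), against 2.58% of all genes called higher and 2.56% called lower. The test was limma on the log2 CPM of the 6 libraries, two-sided, with Benjamini-Hochberg adjustment over all 11551 genes and a threshold of 0.05. The members' median log2 fold change was 0.24, against -0.03 over all genes, and 31 of the 43 were above 0.

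Dpp7, a lysosomal dipeptidyl peptidase, was at 6.08, 6.24 and 7.05 log2 CPM in Art, against 5.09, 4.78 and 5.02 in Rag_SPIC_tet_NoDOX. The groups did not overlap, and the log2 fold change was 1.49 ± 0.27 (SE, limma adjusted p = 0.0344), or 2.82-fold. Mitf was 2.44-fold higher at 1.29 ± 0.21 (limma adjusted p = 0.0275), and Rragd 2.15-fold higher at 1.10 ± 0.15 (limma adjusted p = 0.0195). Neu1, the lysosomal sialidase, was at 8.04, 8.01 and 8.25 in Art, against 7.61, 7.40 and 7.55 in Rag_SPIC_tet_NoDOX, and its call was the narrowest at 0.58 ± 0.12 (limma adjusted p = 0.0498). Tfe3 at 0.09 ± 0.19, Tfeb at 0.57 ± 0.27, Flcn at 0.56 ± 0.26 and Fnip1 at -0.31 ± 0.55 did not pass. Counted by libraries that do not overlap, 17 members were higher in Art and 5 lower, against 18.4% and 19.4% of all genes.

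This comparison turned on Art replicate 3. Without it, 22 members were higher in Art and 8 lower, against 23.2% and 24.2% of all genes. When any 1 of the other 5 libraries was left out no member passed, and at most 1 of all genes did. Mitf (1.32 ± 0.24), Rragd (1.24 ± 0.06), Dpp7 (1.20 ± 0.09) and Neu1 (0.50 ± 0.06) again passed when Art replicate 3 was left out, with limma adjusted p of 0.000151, 3.14e-11, 2.32e-09 and 2.64e-06. Hexa, the alpha subunit of beta-hexosaminidase (0.60 ± 0.13), and Asah1, acid ceramidase (0.43 ± 0.07), then rose as well. On the lower side were the protease Ctsh (-0.55 ± 0.09), the cholesterol carrier Npc2 (-0.48 ± 0.06) and the glycosidases Gla (-0.42 ± 0.16) and Glb1 (-0.35 ± 0.07). Fnip1 was then higher at 0.37 ± 0.07 (limma adjusted p = 0.000286), and Tfe3 stood at -0.11 ± 0.06 (limma adjusted p = 0.111), both with the other sign. Myeloid markers summed to 819 to 1049 CPM in Art, against 449 to 454 in Rag_SPIC_tet_NoDOX, largely Itgam, while Csf1r averaged 0.29 log2 CPM in Art and 1.98 in Rag_SPIC_tet_NoDOX. The counts over the whole myeloid list were 1 higher and 3 lower of 12. Pre-B markers summed to 10313 to 12165 CPM in Art, against 7402 to 7577 in Rag_SPIC_tet_NoDOX, and Lck with Tcf7 to 119 to 128 CPM in Art, against 57.7 to 59.3 in Rag_SPIC_tet_NoDOX. The part of these cells or programmes in the members' differences was not tested, and in bulk RNA a change in the number of cells of a type and in RNA per cell cannot be told apart.

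**Figure D3:**
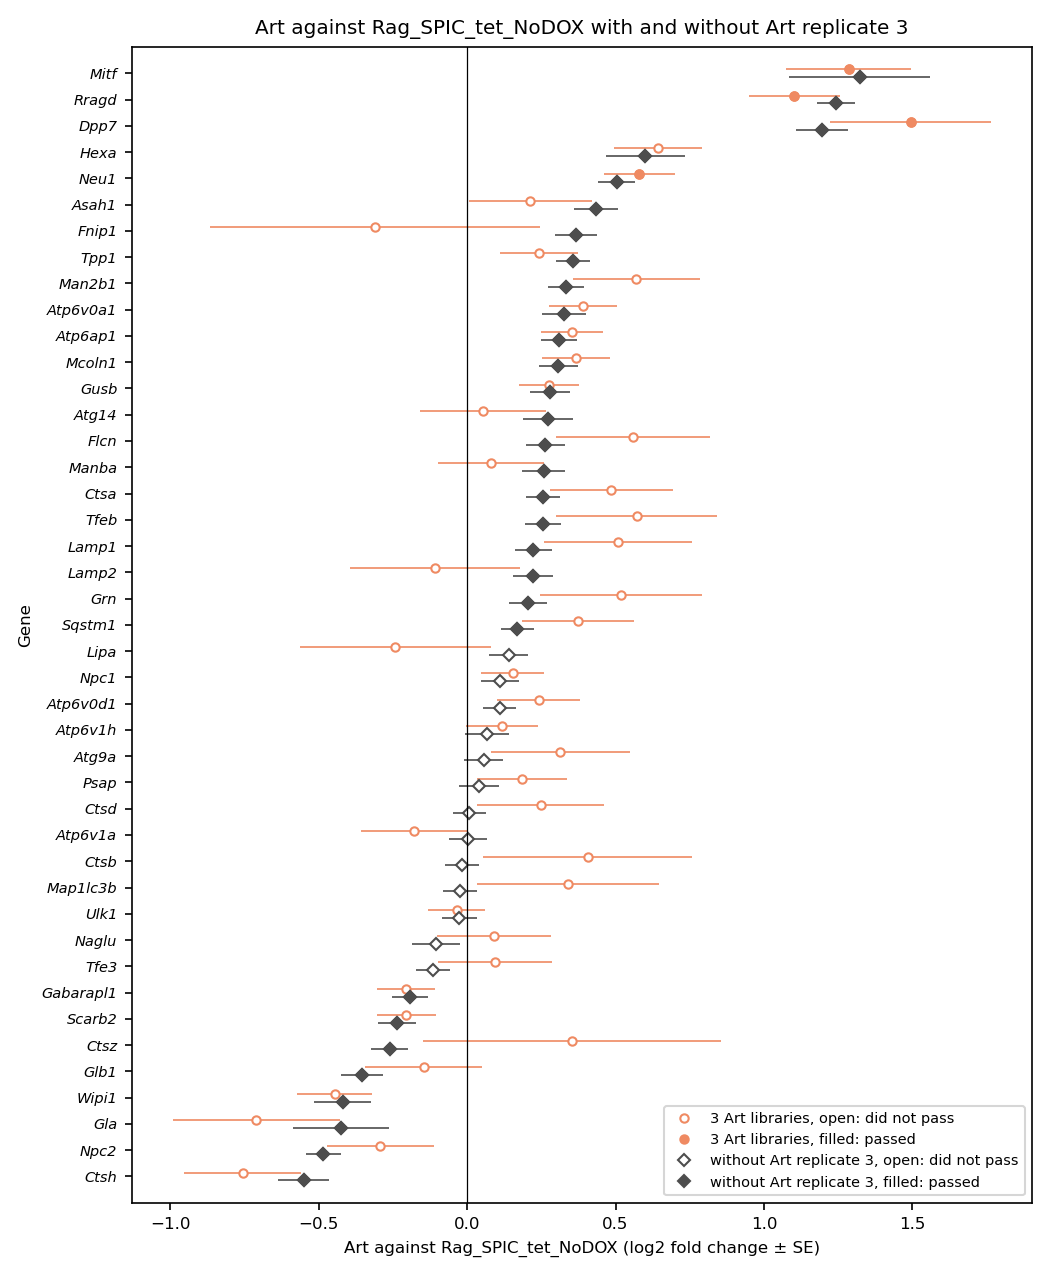
Log2 fold change ± SE of each of the 43 genes in Art against Rag_SPIC_tet_NoDOX, with all 3 Art libraries (circles) and without Art replicate 3 (diamonds). Filled symbols passed an adjusted p of 0.05: 4 circles and 30 diamonds are filled, and Mitf, Rragd and Dpp7 lie farthest to the right both ways.

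The comparison of Rag_SPIC_tet_DOX with Rag_SPIC_tet_NoDOX asked what doxycycline did in Rag_SPIC_tet cells, in which Spic rose. Few members moved: Ctsh, Wipi1 and Neu1 were lower in Rag_SPIC_tet_DOX and no member was higher. These are 3 of 43 (6.98%), against 8.67% of all genes called lower and 3.16% called higher, and the median member stood at 0.00, as did the median gene. Ctsh, a cathepsin with aminopeptidase activity, was at 3.50, 4.09 and 3.53 log2 CPM in Rag_SPIC_tet_DOX, against 4.69, 4.73 and 4.63 in Rag_SPIC_tet_NoDOX, a log2 fold change of -0.98 ± 0.17 (limma adjusted p = 0.0178). Wipi1, which binds the lipid that marks sites of autophagosome growth, was at 4.03, 3.90 and 3.96 in Rag_SPIC_tet_DOX, against 4.69, 4.59 and 4.51 in Rag_SPIC_tet_NoDOX, at -0.63 ± 0.10 (limma adjusted p = 0.0146). For both genes the groups stood apart without overlap. Neu1 was lower at -0.45 ± 0.09 (limma adjusted p = 0.0243).

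The regulators did not pass in this comparison, with Tfe3 at -0.12 ± 0.09, Tfeb at 0.03 ± 0.07, Mitf at -0.69 ± 0.28, Flcn at -0.35 ± 0.11, Fnip1 at 0.07 ± 0.13 and Rragd at 0.34 ± 0.14. Groups without overlap were seen for 5 members higher and 8 lower, against 18.0% and 22.7% of all genes. At an unadjusted p under 0.05, 14 of the 43 members passed, against 34.2% of all genes, so their share is near that of all genes. The counts moved with the libraries: without Rag_SPIC_tet_DOX replicate 2, 5 members were higher and 9 lower, against 20.0% and 19.6% of all genes, with Ctsh at -1.17 ± 0.11, Hexa at -0.62 ± 0.18 and Gusb at 0.74 ± 0.13. Without Rag_SPIC_tet_DOX replicate 1, 2 members were higher, and without Rag_SPIC_tet_DOX replicate 3 or Rag_SPIC_tet_NoDOX replicate 1 or 3 none was lower, while without Rag_SPIC_tet_NoDOX replicate 2 it was 1. Of all 11551 genes, 1637 were called without Rag_SPIC_tet_DOX replicate 1 and 58 without Rag_SPIC_tet_DOX replicate 3. Without Rag_SPIC_tet_NoDOX replicate 1, 2 or 3, 12, 401 and 15 were called, so these counts follow the calls over all genes. The myeloid marker Cd14 was higher by 4.15 ± 1.02 log2 units in Rag_SPIC_tet_DOX (limma adjusted p = 0.0431), at -2.30 to 1.58 log2 CPM there against -5.17 to -3.57 in Rag_SPIC_tet_NoDOX. It was the only one of 12 myeloid markers called, they summed to 381 to 426 CPM in Rag_SPIC_tet_DOX against 449 to 454 in Rag_SPIC_tet_NoDOX, and their part was not tested. Pre-B markers summed to 5950 to 8594 CPM in Rag_SPIC_tet_DOX, against 7402 to 7577 in Rag_SPIC_tet_NoDOX.

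The comparison of Rag_SPIC_tet_DOX_shBCLAF1 with Rag_SPIC_tet_DOX asked what went with the shBCLAF1 label in cells given doxycycline. Of 43 members 22 (51.2%) were lower and 6 higher, against 25.1% of all genes lower and 28.5% higher, and the median member stood at -0.32 where the median gene stood at 0.05. All 7 autophagy members were lower, and Tfe3 with them, whereas Tfeb was higher. Groups without overlap were seen for 25 members lower and 8 higher, against 30.6% and 35.5% of all genes.

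Among the factors, Tfe3 was 1.68-fold lower at -0.75 ± 0.08 (limma adjusted p = 0.00101), and Tfeb was 1.26-fold higher at 0.34 ± 0.06 (limma adjusted p = 0.00403). Tfeb stood at 6.95, 6.95 and 6.92 log2 CPM in Rag_SPIC_tet_DOX_shBCLAF1, against 6.65, 6.53 and 6.62 in Rag_SPIC_tet_DOX, so these relatives moved in opposite directions. Mitf at 0.49 ± 0.23, Flcn at -0.19 ± 0.10 and Rragd at 0.04 ± 0.13 did not pass. Fnip1 passed at -0.45 ± 0.12 (limma adjusted p = 0.0204), a call lost without any of the 3 libraries labelled shBCLAF1 or without Rag_SPIC_tet_DOX replicate 3.

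The enzymes split. Hexa stood at 0.05, -0.34 and -0.33 log2 CPM in Rag_SPIC_tet_DOX_shBCLAF1, from 20 to 23 reads, against 2.03, 2.93 and 2.26 in Rag_SPIC_tet_DOX, from 94 to 168 reads. That is 6.12-fold lower, a log2 fold change of -2.61 ± 0.27 (limma adjusted p = 0.000815). Ctsh was at 2.79, 2.53 and 2.57 in Rag_SPIC_tet_DOX_shBCLAF1, against 3.50, 4.09 and 3.53 in Rag_SPIC_tet_DOX, at -1.08 ± 0.18 (limma adjusted p = 0.00421). Lipa, the acid lipase that frees cholesterol and fatty acids, was 1.97-fold lower at -0.98 ± 0.08 (limma adjusted p = 0.000368), and the cathepsin Ctsd was lower at -0.52 ± 0.08 (limma adjusted p = 0.0025). On the other side Grn, progranulin, stood at 7.34, 7.31 and 7.28 in Rag_SPIC_tet_DOX_shBCLAF1, against 6.47, 6.40 and 6.50 in Rag_SPIC_tet_DOX. Its groups lay far apart for their spread, at 0.85 ± 0.06 (limma adjusted p = 0.00022). Dpp7 at 0.66 ± 0.12, beta-glucuronidase Gusb at 0.61 ± 0.20, the alpha-mannosidase Man2b1 at 0.49 ± 0.08 and beta-galactosidase Glb1 at 0.31 ± 0.07 were the other rises, with limma adjusted p of 0.00446, 0.0408, 0.00349 and 0.0125. The Gusb call was lost when any 1 of the 3 Rag_SPIC_tet_DOX_shBCLAF1 libraries or Rag_SPIC_tet_DOX replicate 3 was left out, and that of Glb1 without Rag_SPIC_tet_DOX_shBCLAF1 replicate 2.

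The autophagy genes moved one way. Wipi1 was at 2.18, 1.69 and 2.13 log2 CPM in Rag_SPIC_tet_DOX_shBCLAF1, against 4.03, 3.90 and 3.96 in Rag_SPIC_tet_DOX, 3.91-fold lower at -1.97 ± 0.16 (limma adjusted p = 0.000379). Gabarapl1, an LC3-like protein of the autophagosome membrane, was at 6.07, 6.03 and 5.98 in Rag_SPIC_tet_DOX_shBCLAF1, against 6.70, 6.69 and 6.67 in Rag_SPIC_tet_DOX, at -0.66 ± 0.05 (limma adjusted p = 0.00042). The cargo receptor Sqstm1 (-0.60 ± 0.10) and Atg14 of the lipid kinase complex (-0.62 ± 0.12) followed, with limma adjusted p of 0.00386 and 0.00569. The other 3, Map1lc3b, Ulk1 and Atg9a, were lower with means of 6.69, 6.67 and 6.47 in Rag_SPIC_tet_DOX_shBCLAF1 against 7.20, 7.10 and 6.78 in Rag_SPIC_tet_DOX.

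Among membrane proteins Lamp2, Scarb2 and Npc1 were lower, the last, a cholesterol exporter, at -0.52 ± 0.07 (limma adjusted p = 0.00151). Of the pump, Atp6v0d1 and Atp6v1a were lower and the other 3 subunits did not pass. The saposin precursor Psap and the beta-mannosidase Manba were lower, and acid ceramidase Asah1 did not pass, at means of 5.88 log2 CPM in Rag_SPIC_tet_DOX_shBCLAF1 and 5.79 in Rag_SPIC_tet_DOX. Beside these, myeloid markers summed to 185 to 193 CPM in Rag_SPIC_tet_DOX_shBCLAF1, against 381 to 426 in Rag_SPIC_tet_DOX, with 9 of 12 lower and 1 higher. Csf1r averaged -1.20 log2 CPM and Adgre1 -3.17 in Rag_SPIC_tet_DOX_shBCLAF1, against 2.17 and 1.36 in Rag_SPIC_tet_DOX. Pre-B markers summed to 5940 to 6157 CPM in Rag_SPIC_tet_DOX_shBCLAF1, against 5950 to 8594 in Rag_SPIC_tet_DOX. The part of these in the members' falls was not tested.

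The comparison of Art_shBCLAF1 with Art asked the same in Art -/- cells. Of 43 members 24 (55.8%) were lower and 3 higher, against 24.1% of all genes lower and 25.0% higher, and the median member stood at -0.75 against 0.05 for the median gene. The lower ones held 2 of 3 factors, 2 of 3 sensors, 6 of 7 autophagy genes and 3 of 5 pump subunits. With libraries centred on their own medians the median of all genes moved to -0.18, with 2155 genes higher and 3599 lower instead of 2884 and 2780, while 26 members were then lower and 2 higher. Groups without overlap were seen for 28 members lower and 8 higher, against 31.7% and 33.9% of all genes. Without Art replicate 3, 33 members were lower and 8 higher, against 39.5% and 40.6% of all genes.

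Of the factors, Tfe3 was 2.21-fold lower at -1.15 ± 0.20 (limma adjusted p = 0.00463). Mitf, at 29, 17 and 17 reads in Art_shBCLAF1 and 80, 58 and 17 in Art, was 3.03-fold lower after scaling to library size, at -1.60 ± 0.22 (limma adjusted p = 0.00182). Tfeb at -0.51 ± 0.27 and Fnip1 at -0.43 ± 0.55 did not pass, though without Art replicate 3 Fnip1 was lower at -1.11 ± 0.09 (limma adjusted p = 7.41e-07) and Tfeb at -0.19 ± 0.06 (limma adjusted p = 0.0161). Rragd was 3.86-fold lower at -1.95 ± 0.15 (limma adjusted p = 0.000281) and Flcn 2.96-fold lower at -1.57 ± 0.27 (limma adjusted p = 0.00408). The 3 libraries of each group did not overlap for Tfe3, Mitf, Rragd or Flcn.

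Among the enzymes Hexa had the largest fall here as well. It was at 0.15, 0.66 and 0.09 log2 CPM in Art_shBCLAF1, from 19 to 29 reads, against 3.45, 3.27 and 3.49 in Art, from 65 to 283 reads, 8.62-fold lower at -3.11 ± 0.22 (limma adjusted p = 0.00019). Dpp7, with the palindrome shown above, was at 4.05, 4.54 and 4.28 in Art_shBCLAF1, against 6.08, 6.24 and 7.05 in Art, 4.49-fold lower at -2.17 ± 0.28 (limma adjusted p = 0.00154). Neu1 (-1.42 ± 0.19), the protective protein Ctsa that holds it in a complex (-1.22 ± 0.22), Ctsd (-1.21 ± 0.22) and the tripeptidyl peptidase Tpp1 (-1.20 ± 0.17) were lower, with limma adjusted p of 0.00157, 0.00494, 0.00565 and 0.00209. The calcium channel Mcoln1 was at 5.93, 6.33 and 5.92 in Art_shBCLAF1, against 7.19, 7.17 and 7.36 in Art, apart in every library, and passed (limma adjusted p = 0.00147). Against this, Gla, alpha-galactosidase A, was at 3.19, 3.04 and 3.15 in Art_shBCLAF1, against 1.85, 2.07 and 1.10 in Art, and it had 12 to 209 reads over the 15 libraries. It was 2.73-fold higher at 1.45 ± 0.28 (limma adjusted p = 0.00615), and its window also holds the palindrome. Gusb was at 7.15, 6.98 and 7.16 in Art_shBCLAF1, against 6.11, 6.10 and 6.09 in Art, and was called higher (limma adjusted p = 0.000774). Ctsh was higher at 0.63 ± 0.21 (limma adjusted p = 0.0472), a call kept in only 1 of the 6 fits that leave out a library, that without Art replicate 3.

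Of the autophagy genes, Wipi1 was at 2.52, 2.32 and 2.58 log2 CPM in Art_shBCLAF1, against 4.06, 4.29 and 4.10 in Art, 3.19-fold lower at -1.67 ± 0.15 (limma adjusted p = 0.000434). Sqstm1 was at 7.94, 7.93 and 7.86 in Art_shBCLAF1, against 8.85, 8.81 and 9.44 in Art, and Gabarapl1 at 5.77, 5.78 and 5.76 in Art_shBCLAF1, against 6.63, 6.61 and 6.58 in Art. Both stood apart from Art in every library, as did Map1lc3b, Ulk1 and Atg14, which were lower too. Atg9a, the scramblase that seeds the membrane, did not pass, with means of 6.69 in Art_shBCLAF1 and 7.12 in Art. Of the membrane and pump genes, Lamp1, Scarb2, Npc1, Atp6v0a1, Atp6v0d1 and Atp6ap1 were lower, the calls of Lamp1, Scarb2 and Map1lc3b being lost without some library. Pre-B markers moved with these genes: 8 of 10 were lower, and they summed to 4358 to 4794 CPM in Art_shBCLAF1, against 10313 to 12165 in Art. Myeloid markers summed to 198 to 218 CPM in Art_shBCLAF1, against 819 to 1049 in Art, with Itgam at a mean of 4.65 log2 CPM in Art_shBCLAF1 and 9.65 in Art, while 3 of 12 were lower and 2 higher. Lck and Tcf7 summed to 21.2 to 22.6 CPM in Art_shBCLAF1, against 119 to 128 in Art. The part of these in the members' falls was not tested. Exons of some members overlap another gene in the GENCODE M21 annotation of GRCm38, 34.4% of exonic bases for Ctsd (Gm49369), 32.6% for Atg9a (Gm29253), 28.3% for Gabarapl1 (1700101I11Rik), 17.4% for Ctsa (Pltp), 17.3% for Sqstm1 (Mrnip), and 12.8% each for Ctsb (Fdft1) and Hexa (Tmem202). The partners of Ctsd and Atg9a lie on the same strand as the member and the other 5 on the opposite strand. How reads in shared stretches were assigned, and whether by strand, no source used here states, so the values of these members are uncertain to that extent.

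**Figure D4:**
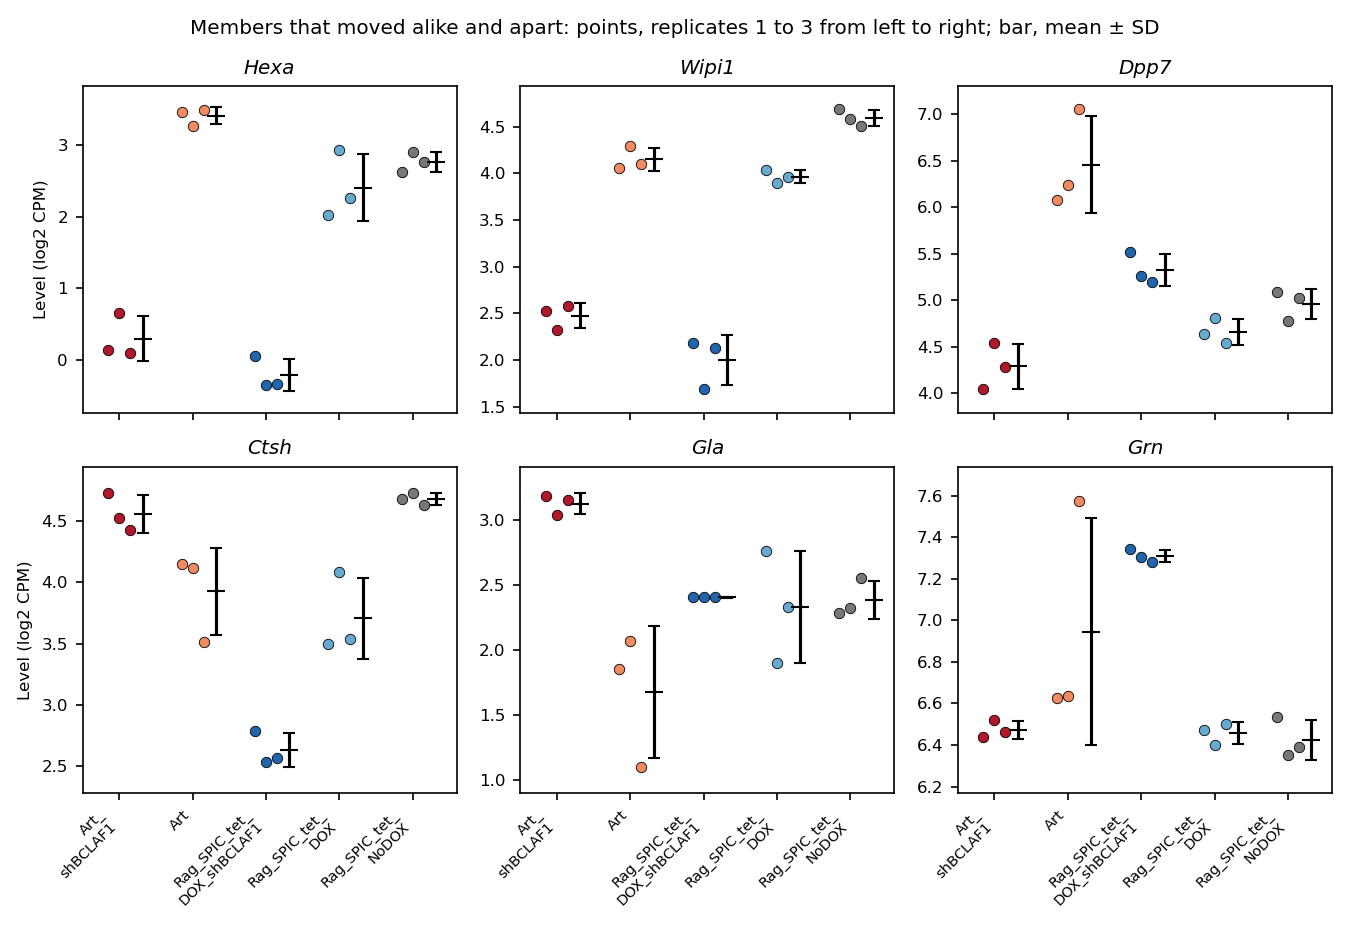
Levels (log2 CPM) of 6 lysosome and autophagy genes in the 5 groups, with points for replicates 1 to 3 from left to right and a bar for the mean ± SD. Hexa and Wipi1 are low in both groups labelled shBCLAF1, Dpp7 and Ctsh move in opposite directions in the Art and the Rag_SPIC_tet_DOX cells, Gla is highest in Art_shBCLAF1 and Grn is high in Rag_SPIC_tet_DOX_shBCLAF1 and in Art replicate 3. The vertical axes do not start at 0.

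The comparisons by the shBCLAF1 label share no library, so their calls can be set side by side. Lower in both were 14 members: Tfe3, Hexa, Wipi1, Ctsd, Ctsa, Psap, Npc1, Scarb2, Atp6v0d1, Sqstm1, Map1lc3b, Gabarapl1, Ulk1 and Atg14. They are 58.3% of the members lower in Art_shBCLAF1 and 63.6% of those lower in Rag_SPIC_tet_DOX_shBCLAF1, where for all genes the shares were 47.7% and 45.8%. Members were also called lower more often, 55.8% in Art_shBCLAF1 and 51.2% in Rag_SPIC_tet_DOX_shBCLAF1, against 24.1% and 25.1% of all genes. Higher call rates raise such shares by themselves, so the shares do not show closer agreement among members. Gusb alone among the members was higher in both, and Ctsh and Dpp7 passed in opposite directions. The Pearson r between the log2 fold changes of both comparisons was 0.38 over the 43 members and 0.56 over the 11551 genes. It is a description, since genes of the same libraries do not replicate each other. Comparisons that have a group in common (Art, Rag_SPIC_tet_DOX or Rag_SPIC_tet_NoDOX) share its libraries, so no overlap is given for them.

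The difference between the Art and the Rag_SPIC_tet_DOX cells was tested with an interaction term over the 12 libraries. It is the log2 fold change in Art_shBCLAF1 against Art minus that in Rag_SPIC_tet_DOX_shBCLAF1 against Rag_SPIC_tet_DOX. By the labels both Rag -/- groups used here carry the SPIC construct and doxycycline and the Art groups neither. Line, construct and doxycycline cannot be told apart in this term. Of 43 members 15 (34.9%) had a lower log2 fold change in the Art cells and 4 a higher one, against 17.0% and 14.3% of all genes. The largest differences were of Dpp7 (-2.83 ± 0.33), Mitf (-2.09 ± 0.31), Rragd (-1.99 ± 0.21), Neu1 (-1.61 ± 0.21) and Flcn (-1.37 ± 0.30), with limma adjusted p of 0.000162, 0.00076, 0.00012, 0.000327 and 0.0066. The first 4 of these are the genes that had been higher in Art than in Rag_SPIC_tet_NoDOX, and both results use the Art libraries. In the other direction were Ctsh (1.71 ± 0.30), Gla (1.37 ± 0.37) and Lipa (1.04 ± 0.35), with limma adjusted p of 0.00168, 0.0174 and 0.0451. For Tfe3 at -0.40 ± 0.23 (limma adjusted p = 0.208) and Fnip1 at 0.02 ± 0.61 the difference did not pass, nor for Hexa at -0.49 ± 0.36 (limma adjusted p = 0.323) or Wipi1 at 0.29 ± 0.22 (limma adjusted p = 0.335). Of the 7 autophagy genes Ulk1 alone passed, at -0.42 ± 0.14 (limma adjusted p = 0.0355). Tfeb passed at -0.84 ± 0.29 (limma adjusted p = 0.0499), and its call, with those of Lipa, Ulk1, Psap, Man2b1, Ctsa, Atp6v0a1 and Atp6v1a, was lost without some library. Without Art replicate 3, 21 members were lower and 7 higher, against 27.8% and 26.6% of all genes. Over the fits that leave out 1 library, 2674 to 6286 of all genes were called, against 3621 with all 12 libraries. Without Art_shBCLAF1 replicate 1 or 3, Rag_SPIC_tet_DOX_shBCLAF1 replicate 3 or Rag_SPIC_tet_DOX replicate 3, 9 members were lower and 2 higher. The higher count was also 2 without Art_shBCLAF1 replicate 2, Rag_SPIC_tet_DOX_shBCLAF1 replicate 1 or 2, or Rag_SPIC_tet_DOX replicate 1. Beside these, 7 of 12 myeloid markers differed upward and 2 downward, and 6 of 10 pre-B markers downward, and their part was not tested.

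**Figure D5:**
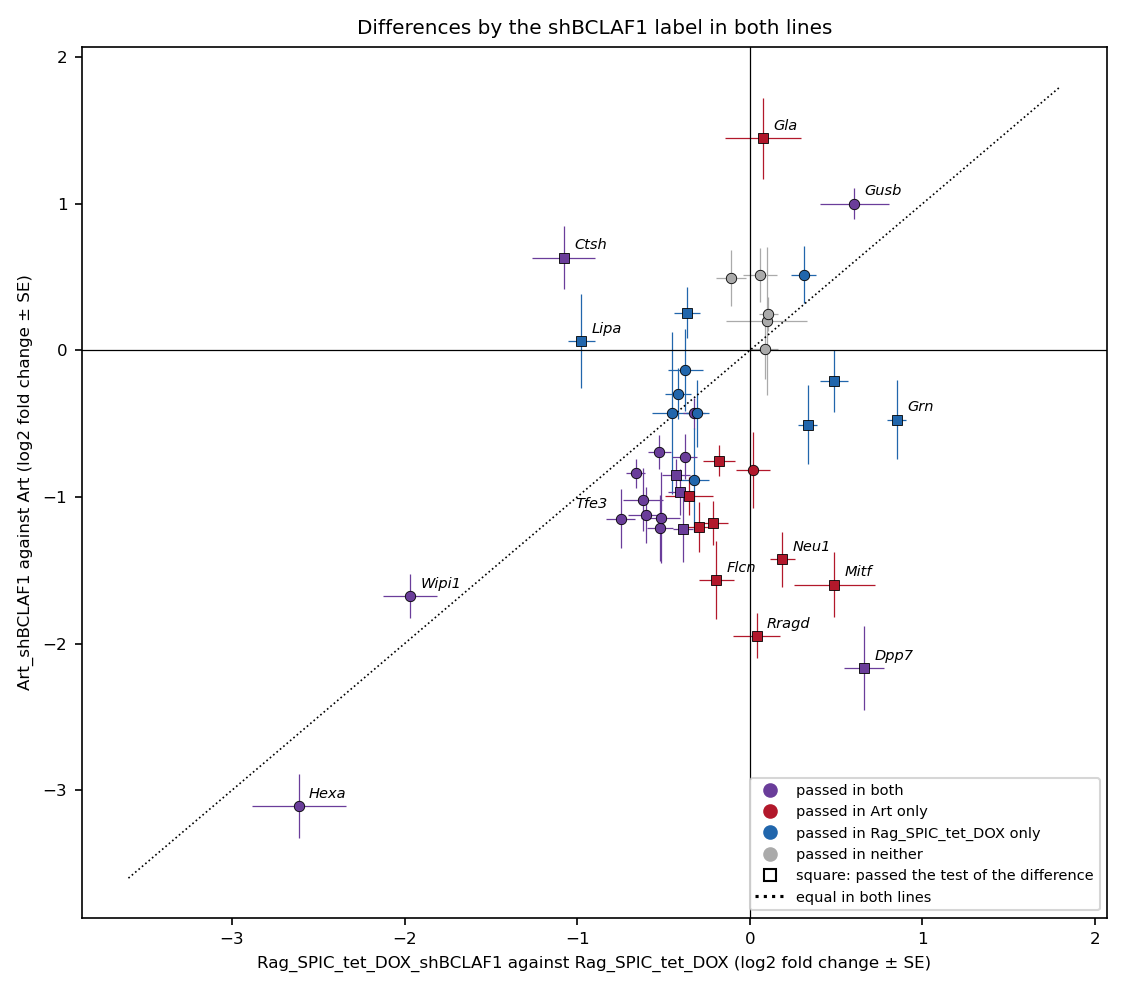
Log2 fold change ± SE of the 43 genes by the shBCLAF1 label, in Rag_SPIC_tet_DOX cells (horizontal axis) and in Art cells (vertical axis), where the dotted line marks equal changes. Purple genes passed in both and squares passed the test of the difference. Hexa and Wipi1 lie near the line at the lower left, Dpp7 lies at -2.17 in Art and 0.66 in Rag_SPIC_tet_DOX cells, and Ctsh lies at 0.63 in Art and -1.08 in Rag_SPIC_tet_DOX cells.

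Genes of the same pathways outside the 45 were counted in the same comparisons. These lists too were chosen with earlier results of these data known. Of 42 further autophagy genes found, 16 were lower and 4 higher in Art_shBCLAF1 against Art, with a median log2 fold change of -0.34. Of all genes 24.1% were lower and 25.0% higher there. In Rag_SPIC_tet_DOX_shBCLAF1 against Rag_SPIC_tet_DOX 22 were lower and 4 higher, with a median of -0.27, where 25.1% of all genes were lower and 28.5% higher. Map1lc3a, an LC3 gene, was lower at -1.82 ± 0.26 in Art_shBCLAF1 (limma adjusted p = 0.00204) and at -1.80 ± 0.17 in Rag_SPIC_tet_DOX_shBCLAF1 (limma adjusted p = 0.000594). Of 29 further lysosomal enzymes, 14 were lower and 4 higher in Art_shBCLAF1, where 24.1% of all genes were lower and 25.0% higher. In Rag_SPIC_tet_DOX_shBCLAF1 11 were lower and 5 higher, where 25.1% of all genes were lower and 28.5% higher. Sgsh, the heparan sulfatase, was at 0.41, 1.08 and 0.64 log2 CPM in Art_shBCLAF1, against 3.43, 3.63 and 3.81 in Art, at -2.92 ± 0.23 (limma adjusted p = 0.000285). In Rag_SPIC_tet_DOX_shBCLAF1 it was at 0.76, 0.71 and 0.68, against 2.55, 3.09 and 2.81 in Rag_SPIC_tet_DOX, at -2.10 ± 0.17 (limma adjusted p = 0.000425). Arsb, another sulfatase, went the other way in both, at 2.93 ± 0.17 in Art_shBCLAF1 (limma adjusted p = 0.000123) and 0.99 ± 0.26 in Rag_SPIC_tet_DOX_shBCLAF1 (limma adjusted p = 0.02).

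Of 22 further genes of the lysosomal membrane, transport and sorting, 6 were lower and 5 higher in Rag_SPIC_tet_DOX_shBCLAF1, where 25.1% of all genes were lower and 28.5% higher, so these counts are near that background. In Art_shBCLAF1 12 were lower and 2 higher, where 24.1% of all genes were lower and 25.0% higher. Sort1, sortilin, which carries hydrolases to the lysosome, was lower in Rag_SPIC_tet_DOX_shBCLAF1 at -2.68 ± 0.24 and in Art_shBCLAF1 at -2.52 ± 0.35, with limma adjusted p of 0.000535 and 0.00186. Igf2r, the large mannose 6-phosphate receptor, instead split between the Art and the Rag_SPIC_tet_DOX cells. It was at 4.12, 4.28 and 4.28 log2 CPM in Art_shBCLAF1, against 6.75, 6.78 and 7.02 in Art, whereas in Rag_SPIC_tet_DOX_shBCLAF1 it was higher at 0.57 ± 0.11 (limma adjusted p = 0.00661). The difference was -3.20 ± 0.18 (limma adjusted p = 3.2e-06). Igf2r had also been higher in Art than in Rag_SPIC_tet_NoDOX, at 1.12 ± 0.12 (limma adjusted p = 0.0112), as had the enzymes Acp5 and Ppt1 and the chloride exchanger Clcn7. These rises use the same Art libraries as the fall and the difference of Igf2r. In Art against Rag_SPIC_tet_NoDOX at most 1 of all genes was called when any library but Art replicate 3 was left out. Of 13 further pump genes 5 were lower and 3 higher in Rag_SPIC_tet_DOX_shBCLAF1, and 5 lower and 1 higher in Art_shBCLAF1, with Tcirg1 lower at -1.99 ± 0.28 in Art_shBCLAF1 (limma adjusted p = 0.00191) and slightly higher at 0.34 ± 0.09 in Rag_SPIC_tet_DOX_shBCLAF1 (limma adjusted p = 0.0189). Of 23 genes of mTORC1 and nutrient sensing 6 were lower and 6 higher in Rag_SPIC_tet_DOX_shBCLAF1, and 5 lower and 2 higher in Art_shBCLAF1, shares near or under those of all genes. Fnip2 was lower at -2.84 ± 0.50 in Rag_SPIC_tet_DOX_shBCLAF1 (limma adjusted p = 0.00463) and at -2.29 ± 0.56 in Art_shBCLAF1 (limma adjusted p = 0.0158). It was a low transcript, with means of -2.34 log2 CPM in Rag_SPIC_tet_DOX_shBCLAF1 and 0.50 in Rag_SPIC_tet_DOX. Its means were -2.86 in Art_shBCLAF1 and -0.57 in Art, so its folds rest on few reads. In Art against Rag_SPIC_tet_NoDOX the 5 lists had 2, 3, 1, 0 and 0 genes higher and none lower, in the order enzymes, membrane, pump, autophagy and mTORC1, where 2.58% of all genes were higher and 2.56% lower.

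Members were also counted by whether their window holds TCACGTG. In Art_shBCLAF1 against Art, 7 of the 12 were lower and 1 was higher, beside 16 lower and 1 higher of the 26 members whose window lacks it, with medians of -0.77 and -0.84, where 24.1% of all genes were lower and 25.0% higher. In Rag_SPIC_tet_DOX_shBCLAF1 against Rag_SPIC_tet_DOX, 6 of the 12 were lower and 2 higher, beside 13 lower and 4 higher of the 26, with medians of -0.29 and -0.31, where 25.1% of all genes were lower and 28.5% higher. Hexa, which fell furthest in both lines, and Wipi1 have none of the 3 motifs in their windows.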

How the data were processed

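RNA of 15 libraries was prepared with RNeasy and TruSeq kits and sequenced paired-end, per the labels' protocols. The submitters' processing notes name the build mm9 and the tools limma, edgeR, Subread and featureCounts 1.4.5 but no role for any of them. The authors deposited 4 tables of comparisons, each with log2 CPM of all 15 libraries (reads plus 0.5, scaled to the effective library size), and each lists only protein-coding genes with an adjusted p-value from the authors under 0.05. The authors' p-values and their t and log-odds scores were not used in any test, and the authors' fold changes run the other way round (Art minus Art_shBCLAF1 and so on).

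The union of the tables held 11551 genes, after 152 duplicate rows were merged, and tables did not differ in any shared value. Values under 1000 reads returned whole reads within 0.05 in 100% of cases. Because genes called in none of the comparisons are missing, the adjusted p-values here are over changing genes only. The column used for Art replicate 3 differs from its label by 1 character.

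The log2 CPM were fitted with limma 3.58.1 (R 4.3.3) and a mean-variance trend, on the 6 libraries compared or, for the interaction, 12. Tests were two-sided, with Benjamini-Hochberg adjustment and a threshold of 0.05. The fit was also run on simulated data with independent noise for each gene and no outlying library. That run does not bear on the effect of Art replicate 3 or of the authors' picking of genes. The members and gene lists were chosen with earlier results of these data known. The named genes are Tfe3, Tfeb, Mitf, Flcn, Fnip1 and Rragd in every comparison and the members called, up to 10 rises and 10 falls, with up to the 2 largest rises and falls of each wider list. Alternatives were leaving out each library, a replicate block, a minimum mean of 1 log2 CPM, libraries centred on their medians, array weights and a fit over all 15 libraries. Replicate numbers were checked as pairs through the correlation of deviations from group means, which lay between -0.23 and 0.20. These gave no sign of pairing, but 3 libraries a group cannot exclude it, and the labels do not state it. Promoter sequences were read from RefSeq windows of GRCm38.p6 and exon overlaps from GENCODE M21, and no coordinate was taken from the mm9 tables.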

Additional observations from a re-analysis of the deposited data

Results flagged for a closer look

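For 19 members the difference by the shBCLAF1 label was not the same in the Art cells as in the Rag_SPIC_tet_DOX cells, by the limma interaction term over 12 libraries. In 15 of the 43 members (34.9%) the log2 fold change was lower in the Art cells, against 17.0% of all genes. Among regulators these were Mitf (-2.09 log2 units), Rragd (-1.99), Flcn (-1.37) and Tfeb (-0.84). Among proteases and cofactors they were Dpp7 (-2.83), Grn (-1.32), Tpp1 (-0.91) and Ctsa (-0.84), and among glycosidases Neu1 (-1.61) and Man2b1 (-0.69). The rest were the channel Mcoln1 (-0.97), the pump genes Atp6v0a1 (-0.64) and Atp6ap1 (-0.57), Psap (-0.56) and the autophagy kinase Ulk1 (-0.42). In 4 (9.3%) the log2 fold change was higher in the Art cells, a share under the 14.3% of all genes. They were Ctsh (1.71), Gla (1.37), Lipa (1.04) and the pump gene Atp6v1a (0.62). Not all of the 19 were called in Art_shBCLAF1 against Art. Grn, Tfeb and Man2b1 were not called there and were higher in Rag_SPIC_tet_DOX_shBCLAF1. Lipa and Atp6v1a were not called there and were lower in Rag_SPIC_tet_DOX_shBCLAF1. Art replicate 3, with an effective library size of 5.81 M reads, is in every one of the 19 differences. Of the 19 calls 11 were kept in every fit that left out a library.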

How the results depend on the processing

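Counts are given as genes called, then members higher and lower. Leaving out each library in turn gave 0 to 5473 genes, 0 to 22 higher and 0 to 8 lower for Art against Rag_SPIC_tet_NoDOX (594, 4 and 0 with all), and 12 to 4569, 0 to 5 and 0 to 9 for Rag_SPIC_tet_DOX against Rag_SPIC_tet_NoDOX (1367, 0 and 3). It gave 3945 to 7576, 4 to 8 and 18 to 26 for Rag_SPIC_tet_DOX_shBCLAF1 against Rag_SPIC_tet_DOX (6186, 6 and 22), 3740 to 9252, 2 to 8 and 21 to 33 for Art_shBCLAF1 against Art (5664, 3 and 24), and 2674 to 6286, 2 to 7 and 9 to 21 for the interaction (3621, 4 and 15). In these fits 22 of 28 called members stayed called in Rag_SPIC_tet_DOX_shBCLAF1 against Rag_SPIC_tet_DOX, 23 of 27 in Art_shBCLAF1 against Art, and 0 of 4 and 0 of 3 in the comparisons with Rag_SPIC_tet_NoDOX. Lost in the shBCLAF1 comparisons were Lamp2, Ctsb, Gusb, Atg9a, Fnip1 and Glb1 in Rag_SPIC_tet_DOX cells and Scarb2, Lamp1, Map1lc3b and Ctsh in Art cells.

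With the replicate block, a pairing the labels do not state, Art against Rag_SPIC_tet_NoDOX had 0 genes and 0 members called, Rag_SPIC_tet_DOX against Rag_SPIC_tet_NoDOX 150 genes and 0 members, and the others 5171, 4779 and 3395 genes in the order above. Array weights gave 6189 genes, 22 higher and 8 lower for Art against Rag_SPIC_tet_NoDOX, 7207, 10 and 11 for Rag_SPIC_tet_DOX against Rag_SPIC_tet_NoDOX, 10 higher for Rag_SPIC_tet_DOX_shBCLAF1 against Rag_SPIC_tet_DOX, 9664 genes and 8 higher for Art_shBCLAF1 against Art, and 8604, 10 and 26 for the interaction. The fit over all 15 libraries gave 1957 genes, 8 higher and 2 lower for Art against Rag_SPIC_tet_NoDOX, 1 higher for Rag_SPIC_tet_DOX against Rag_SPIC_tet_NoDOX and 7 higher for Art_shBCLAF1 against Art. A minimum level left 2 higher in Art against Rag_SPIC_tet_NoDOX, where 484 of all genes were called. Centring left 2 higher in the interaction, where 1331 of all genes were higher and 2225 lower. A members' count given here without a count over all genes shows only that the count moved, and nothing particular to the members.

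No called member had the other sign in any alternative fit that tested it, over 11 alternatives for each comparison and 17 for the interaction. Of the regulators that did not pass, Tfe3 in Art against Rag_SPIC_tet_NoDOX ran from -0.11 to 0.21 over the leave-one-out fits and stood at -0.11 with weights, and Fnip1 ran from -0.65 to 0.37 and stood at 0.33 with weights. In Rag_SPIC_tet_DOX against Rag_SPIC_tet_NoDOX, Fnip1 ran from -0.052 to 0.18, and Tfeb was at -0.024 centred. In Rag_SPIC_tet_DOX_shBCLAF1 against Rag_SPIC_tet_DOX, Rragd ran from -0.11 to 0.15, at -0.061 centred and -0.040 with weights. The Fnip1 interaction ran from -0.66 to 0.37, at -0.11 centred and -0.74 with weights. The cause was not tested. Gla (12 to 209 reads), Mitf (15 to 80), Hexa (19 to 283), Ctsh (66 to 612) and Wipi1 (83 to 458) each had under 100 reads in some library, which limits their folds.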

Other observations

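Among genes of the wider lists, the mitophagy receptor Bnip3 was at 7.06, 6.93 and 6.88 log2 CPM in Art_shBCLAF1, against 5.16, 5.18 and 4.27 in Art, higher by 2.08 ± 0.26 (limma adjusted p = 0.0013). It was 1 of 4 of the 42 further autophagy genes that were higher there, beside 16 that were lower. Of all genes 25.0% were higher there and 24.1% lower. The difference of Bnip3 from the Rag_SPIC_tet_DOX cells was 2.26 ± 0.37 (limma adjusted p = 0.00121). Acp5, the tartrate-resistant acid phosphatase, was at 0.88, 1.08 and 1.38 in Art_shBCLAF1, against 3.60, 3.72 and 4.36 in Art, with the libraries of each group apart. It was lower there by -2.78 ± 0.26 (limma adjusted p = 0.000476), and higher in Art than in Rag_SPIC_tet_NoDOX by 1.46 ± 0.23 (limma adjusted p = 0.025). Both results use the same Art libraries. In the latter comparison at most 1 of all genes was called when any library but Art replicate 3 was left out.

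The cathepsin Ctsc was at 7.40, 7.28 and 7.34 log2 CPM in Art_shBCLAF1, against 6.39, 6.27 and 5.75 in Art, higher by 1.20 ± 0.19 (limma adjusted p = 0.00288). It rose in the same comparison in which Ctsd and Ctsa fell.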
